A study of Drosophila melanogaster with 4 samples.

Results

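The vacuolar H+-ATPase (V-ATPase) is represented here by 8 transcripts of 6 genes, the rows of the deposited table that the annotation assigns to a gene whose symbol starts with Vha. They are 8 of 1761 listed transcripts. That table holds only rows whose p, as deposited by the authors for kdm5 mutant against w1118 intestine, is under 0.05, so the members were selected on this same difference. Their group differences are therefore given as a description and support nothing. The annotation holds 33 Vha genes with 74 transcripts. The other 27 genes and 66 transcripts were not listed, and nothing is known here of their levels.

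The V-ATPase is a rotary pump that uses ATP to move protons across membranes. Its cytosolic V1 sector binds and splits ATP, its membrane V0 sector carries the protons, and stalk subunits hold the sectors together. It acidifies lysosomes and endosomes in most cells, serves as a docking platform for nutrient signalling at the lysosome, and in the fly gut it helps the copper cells to acidify the middle midgut. It also energises ion transport in the Malpighian tubules, the excretory tubules attached to the gut.

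RNA came from dissected intestines of female *Drosophila melanogaster* aged 3 to 5 days, reared at 25 °C, each sample pooling 30 intestines. The groups were a mutant with the kdm5 alleles k6801 and 10424 (2 samples) and the common white-mutant stock w1118 (2 samples). Kdm5 encodes a demethylase of lysine 4 on histone H3. The design asks which genes differ between these genotypes in the intestine. One label field names the whole animal as the source, another the intestine. The labels do not say whether the mutant was bred into the w1118 background. The labels do not say that the samples of a genotype came from separate crosses, so p-values and SDs cover only the spread among these libraries, part of which may be technical.

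Levels are in TPM, a transcript abundance scaled for transcript length and library size, so levels of different subunits can be compared. TPM keeps no record of depth. The mutated gene went with the labels: its listed transcript Kdm5-RE measured 0.0768 and 0.0361 TPM in the mutant libraries and 1.43 and 0.639 TPM in the w1118 libraries. Of the nominal TPM total of a library, all listed transcripts made up 15.6% and 15.3% in mutants and 23.9% and 23.5% in w1118. The mutant libraries differed from each other: replicate 2 was the higher one for 81.7% of the listed transcripts. In w1118 replicate 1 was the higher one for 69.9%.

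All 8 V-ATPase transcripts were listed as lower in the mutant, as were 725 of all 1761 listed transcripts. Their mean TPM in the mutant was between 37.7% (Vha26-RA) and 66.7% (VhaSFD-RE) of the w1118 mean. Summed over the 8, the level was 699 and 846 TPM in the mutant libraries, against 1490.1 and 1072.0 TPM in the w1118 libraries. The groups did not overlap in this sum, and the mutant mean was 60.3% of the w1118 mean. Means were 772 ± 104 TPM for the mutant and 1281 ± 296 TPM for w1118 (SD, n = 2 each). The w1118 libraries differed more from each other than the nearest mutant and w1118 libraries did. As a share of all listed TPM the sum did overlap, at 0.448% and 0.554% in the mutant against 0.625% and 0.456% in w1118. An exact permutation test of 2 against 2 libraries cannot reach 0.05, so no test is given for the sum.

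**Figure D1:**
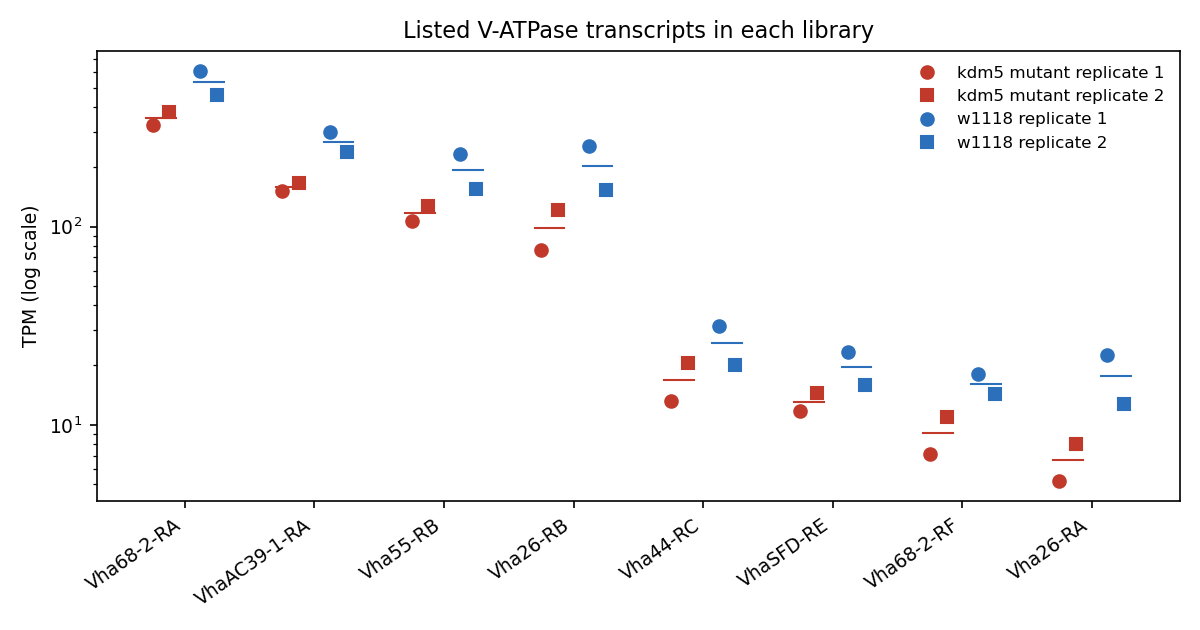
TPM (log axis) of each listed V-ATPase transcript in the 4 libraries; points are libraries and short lines the means of the 2 libraries of a group. Both kdm5 mutant points lie below both w1118 points for 7 of 8 transcripts; for Vha44-RC the higher mutant point (20.5 TPM) lies just above the lower w1118 point (20.0 TPM).

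The table lists 725 transcripts as lower, with a median log2 ratio of mean TPM of -1.05, and the one nearest to 0 stood at -0.58. The median of the 8 members was -0.75, and 5 of them lay nearer to 0 than -0.77, the upper quartile of the lower transcripts. Vha26-RB, at -1.04, lay close to the median of the lower transcripts, and Vha26-RA lay beyond it. The extremes were Vha26-RA at -1.41 and VhaSFD-RE at -0.58. Only 7 lower transcripts in the table were nearer to 0 than VhaSFD-RE. In the authors' deposited table the members' p ran from 0.00113 (Vha26-RA) to 0.0272 (Vha68-2-RA), and the median of all rows was 0.0130. No row lies outside the threshold of 0.05, so values just beyond it cannot be shown.

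**Figure D2:**
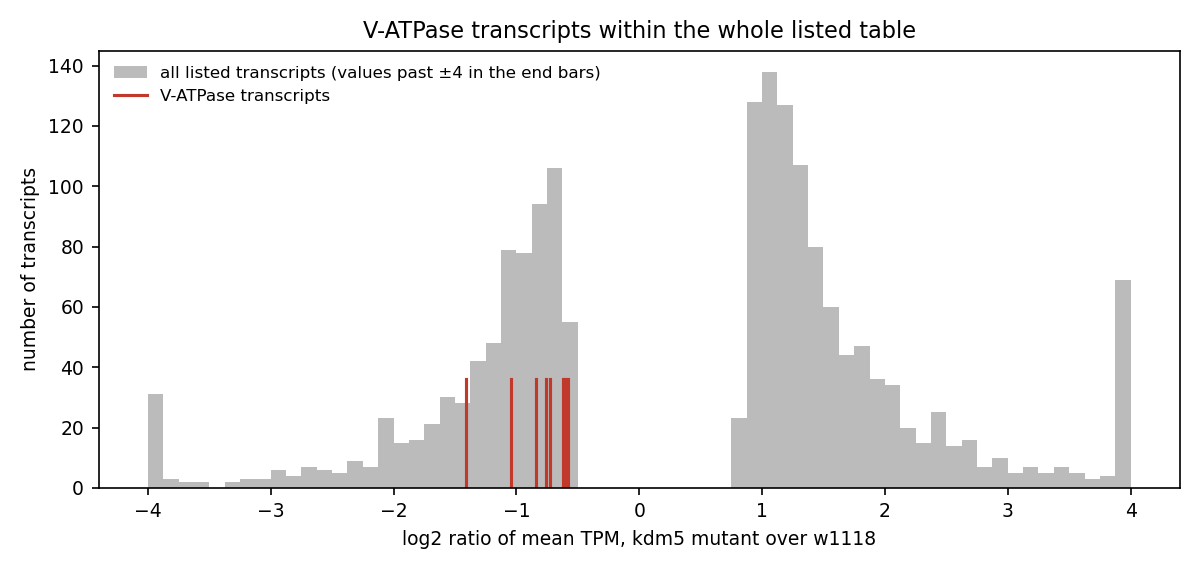
Number of listed transcripts (bars) by log2 ratio of mean TPM, kdm5 mutant over w1118, with the 8 V-ATPase transcripts as red lines; ratios beyond the axis ends are in the end bars. The empty middle is the selection of the table, whose full rule is not given. The V-ATPase lines run from -1.41 (Vha26-RA, in the body of the lower transcripts) to -0.58 (VhaSFD-RE, at their inner edge).

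Both mutant libraries lay below both w1118 libraries for 7 of 8 members. Of all listed transcripts, 35.9% were lower in this way. On log2(TPM + 1), limma fitted over the whole table called 6 of 8 members lower at adjusted p < 0.05 over the listed transcripts, and 23.4% of all listed transcripts were called lower. Those not called were Vha44-RC and VhaSFD-RE. Because the table was selected on this contrast, nothing is read from these counts. With p-values adjusted over every annotated transcript, limma called 0 of 8 (6 of 8 at unadjusted p < 0.05), and 8.69% of the listed transcripts were called lower. Without mutant replicate 1, mutant replicate 2 or w1118 replicate 1, limma called 0 of 8 over the listed transcripts, and without w1118 replicate 2 it called 4. In such a fit 1 group is a single library, assumed to vary like the other group, and 1 residual degree of freedom is left, so fewer calls follow in part from the smaller design. All 8 stayed negative in log2 change in each of these fits. The size of the difference depended on the scaling. On TPM as deposited, the members' median log2 change was -0.72, and that of all transcripts listed as lower was -0.82. The median of all listed transcripts was 0.86, a difference of -1.59 for the members. With libraries rescaled by the median of ratios over the listed transcripts, the medians were -1.58 (members) and 0.10 (all listed), a difference of -1.67. In that fit limma called 8 of 8 members lower, beside 717 of all 1761 listed transcripts. Such scaling takes most transcripts as unchanged. Here every listed transcript was selected as different, and 1036 of the 1761 were listed as higher. Both differences set lower transcripts against a mostly higher list, so nothing is read from their size. Of all calls in the table, 69.7% were higher as deposited and 30.0% after rescaling.

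The ATP-binding head of V1 alternates catalytic A and regulatory B subunits. Vha68-2 encodes a form of subunit A, and Vha68-2-RA (FBtr0080418; arm 2L, 12974364 to 12978607, plus strand, in BDGP6.54) was the most abundant member in every library. It had 327 and 378 TPM in kdm5 mutant intestines and 608 and 463 TPM in w1118 intestines. The groups did not overlap, and the log2 change was -0.59 ± 0.24 (SE). The second listed form of the gene, Vha68-2-RF (FBtr0336614, same strand, 12974322 to 12978607), reached 7.15 and 10.9 TPM in mutant replicates 1 and 2, against 18.0 and 14.4 TPM in the w1118 replicates. It too had no overlap, with a log2 change of -0.79 ± 0.35 (SE), and -0.51 without mutant replicate 1. Vha68-1, a close relative on the same arm, was not listed, and the sources used here do not tell how reads were divided between the copies.

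Vha55 encodes subunit B. Vha55-RB (FBtr0082670; arm 3R, 12623762 to 12627829, minus strand) measured 107 and 128 TPM in the mutant libraries and 234 and 155 TPM in the w1118 libraries. The groups were apart by 27.1 TPM at their nearest, less than the 79.2 TPM between the w1118 libraries. The log2 change was -0.70 ± 0.26 (SE), and -0.40 without w1118 replicate 1.

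Vha26 encodes subunit E, part of the peripheral stalks that brace the head against the membrane sector, and its transcripts showed the widest differences among the members. Vha26-RB (FBtr0078700; arm 3R, 5591763 to 5594699, plus strand) had 76.7 and 121 TPM in kdm5 mutant intestines and 254 and 153 TPM in w1118 intestines. Vha26-RA (FBtr0078701), with the same start and end, reached 5.23 and 8.02 TPM in mutant replicates 1 and 2, against 22.4 and 12.8 TPM in the w1118 replicates. Neither transcript overlapped between the genotypes, but w1118 replicate 1 was far above replicate 2 for both. The log2 changes were -1.02 ± 0.29 for Vha26-RB and -1.26 ± 0.38 for Vha26-RA (SE). Without w1118 replicate 1 they were -0.66 and -0.88, so the differences were smaller without that library.

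Vha44 and VhaSFD encode subunits C and H, which sit where the head meets the stalks and are known for their part in the assembly and control of the pump. Vha44-RC (FBtr0087175; arm 2R, 16324813 to 16333982, minus strand) measured 13.1 and 20.5 TPM in the mutant libraries and 31.6 and 20.0 TPM in the w1118 libraries. It is the one member whose groups overlapped, with a log2 change of -0.59 ± 0.34 (SE). VhaSFD-RE (FBtr0335143; arm 2L, 16722883 to 16727826, minus strand) had 11.7 and 14.5 TPM in kdm5 mutant intestines and 23.3 and 15.9 TPM in w1118 intestines. Its groups were 1.46 TPM apart at their nearest, and the log2 change was -0.53 ± 0.33 (SE). The change of either transcript was thus less than 2 SE. Without w1118 replicate 1 it was -0.27 for both, and for Vha44-RC it was -0.28 without mutant replicate 1. The authors' deposited p was smaller for Vha44-RC (0.00586) and VhaSFD-RE (0.0101) than for Vha68-2-RA (0.0272) and Vha68-2-RF (0.0157). Limma called both Vha68-2 transcripts and neither Vha44-RC nor VhaSFD-RE, so the analyses order these members differently.

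Of the membrane sector, 1 gene was listed. VhaAC39-1 encodes subunit d, which couples the central stalk to the proton-carrying ring. VhaAC39-1-RA (FBtr0070611; X, 3880748 to 3882967, plus strand) reached 151 and 166 TPM in mutant replicates 1 and 2, against 299 and 239 TPM in the w1118 replicates. Here the gap between the nearest libraries, 72.9 TPM, exceeded the range within either group (14.9 TPM between mutant libraries and 59.9 TPM between w1118 libraries). The log2 change was -0.75 ± 0.24 (SE). No other member had a gap wider than both ranges. How often this held over all listed transcripts was not computed, so it is no result about this subunit. VhaAC39-1-RA is the only annotated transcript of its gene, so among the members this value alone covers a whole annotated gene. By sector, 5 of 13 V1 genes and 1 of 21 V0 and accessory genes had a listed transcript. The table lists 1761 transcripts and the annotation holds 35694 outside transposable elements, so most transcripts were not listed. The share of all annotated genes that was listed was not computed, so no difference between the sectors is read from these counts. None belonged to the a, c or e subunits of V0, or to the V1 subunits D, F and G.

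The members kept much the same order of level in every library. In the mutant, Vha68-2-RA, VhaAC39-1-RA and Vha55-RB followed each other without overlap, and Vha55-RB overlapped with Vha26-RB. The other 4 mutant levels lay well below, between 5.23 and 20.5 TPM. Vha44-RC overlapped there with VhaSFD-RE, and Vha68-2-RF with Vha26-RA. In w1118, Vha68-2-RA also stood above VhaAC39-1-RA without overlap. VhaAC39-1-RA, Vha26-RB and Vha55-RB overlapped with their neighbours in that order. The other 4 lay between 12.8 and 31.6 TPM in w1118, and each overlapped with its neighbours.

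As shares of the summed V-ATPase TPM, Vha55, VhaAC39-1 and Vha44 overlapped between the genotypes. VhaAC39-1 held 21.6% and 19.6% of the sum in the mutant, against 20.0% and 22.3% in w1118. Vha68-2 held 47.8% and 46.0% in the mutant and 42.0% and 44.5% in w1118, and Vha26 held 11.7% and 15.2% in the mutant and 18.6% and 15.4% in w1118. Neither share overlapped, but the gap between the nearest libraries was in both cases smaller than the range within either genotype. VhaSFD held 1.68% and 1.71% in the mutant and 1.57% and 1.49% in w1118. Its share did not overlap either, and here the gap was wider than the range within each genotype.

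**Figure D3:**
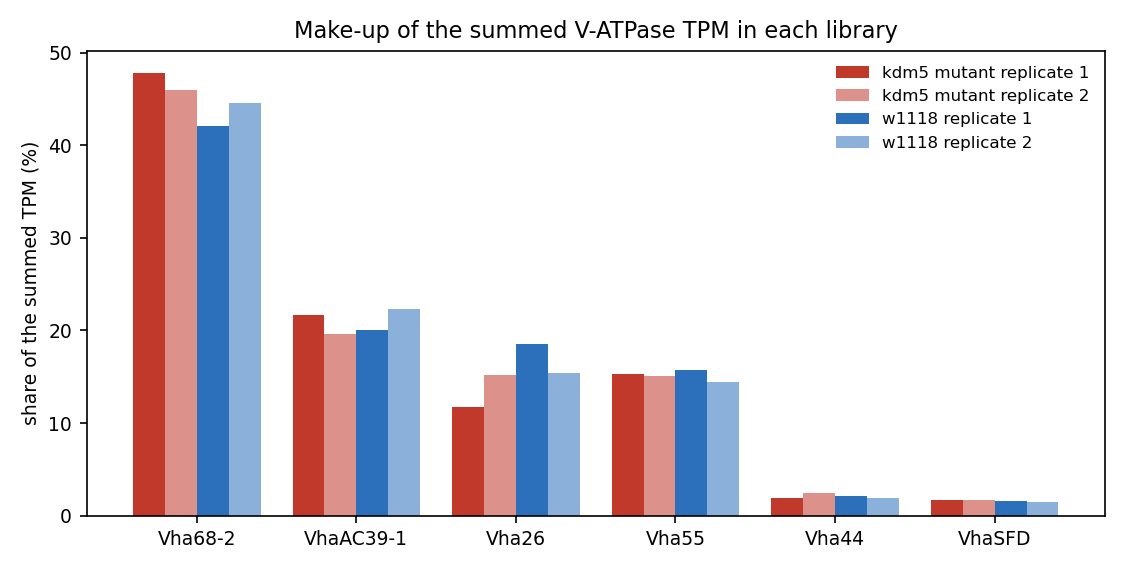
Share of the summed TPM of the listed V-ATPase transcripts (%) held by each gene, 1 bar per library, kdm5 mutant bars left of w1118 bars. Vha68-2 has the tallest bar in each library, with 47.8% and 46.0% in the mutant and 42.0% and 44.5% in w1118.

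The members also varied together between replicates. Mutant replicate 2 was above replicate 1 for 8 of 8, by 1.10- to 1.58-fold, and w1118 replicate 1 was above replicate 2 for 8 of 8, by 1.25- to 1.75-fold. Both orders held together in 60.0% of all listed transcripts and in 71.3% of those listed as lower. The 8 transcripts therefore are not independent results.

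The listed isoforms of Vha26, Vha68-2 and Vha55 differ from the unlisted ones only outside the coding sequence. Vha26-RA and Vha26-RB share 2171 bases and code for the same protein of 226 residues. Vha26-RA differs only by keeping an intron of 98 bases in the 5' untranslated region. The unlisted Vha26-RC keeps it too and has a longer 3' untranslated region. Of the TPM of this pair, Vha26-RA held 6.39% and 6.23% in the mutant, against 8.11% and 7.74% in w1118. These shares did not overlap between the genotypes. They rest on how reads were divided among Vha26-RA, Vha26-RB and the unlisted Vha26-RC, which also holds those 98 bases. Vha68-2-RF starts 42 bases upstream of Vha68-2-RA and is otherwise identical. It held 2.14% and 2.81% of the pair's TPM in the mutant and 2.87% and 3.01% in w1118. All 6 annotated Vha68-2 transcripts share 1 coding sequence of 614 codons, and the 4 not listed differ in their first exon.

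Vha55-RB is 1 of 3 annotated transcripts with a common coding sequence of 490 codons, and has the most upstream start. VhaSFD-RE codes for the same 468 residues as VhaSFD-RA and has a 3' untranslated region longer by 349 bases. The unlisted VhaSFD-RB and VhaSFD-RD code for 542 and 441 residues. Vha44-RC differs in its protein from all other annotated Vha44 transcripts. It codes for 442 residues, against 388 in Vha44-RA and Vha44-RB and 836 in Vha44-RE and Vha44-RF, because of an internal exon that Vha44-RA and Vha44-RB lack and that Vha44-RE and Vha44-RF carry in a longer form, beside a further exon. For these 3 genes, and for Vha26 and Vha68-2, the total over all transcripts of a gene is unknown, because not all were listed. The division of reads among overlapping isoforms is uncertain. No other protein-coding gene overlaps a listed member, and the microRNA gene mir-1006 lies within VhaSFD on the same strand.

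**Figure D4:**
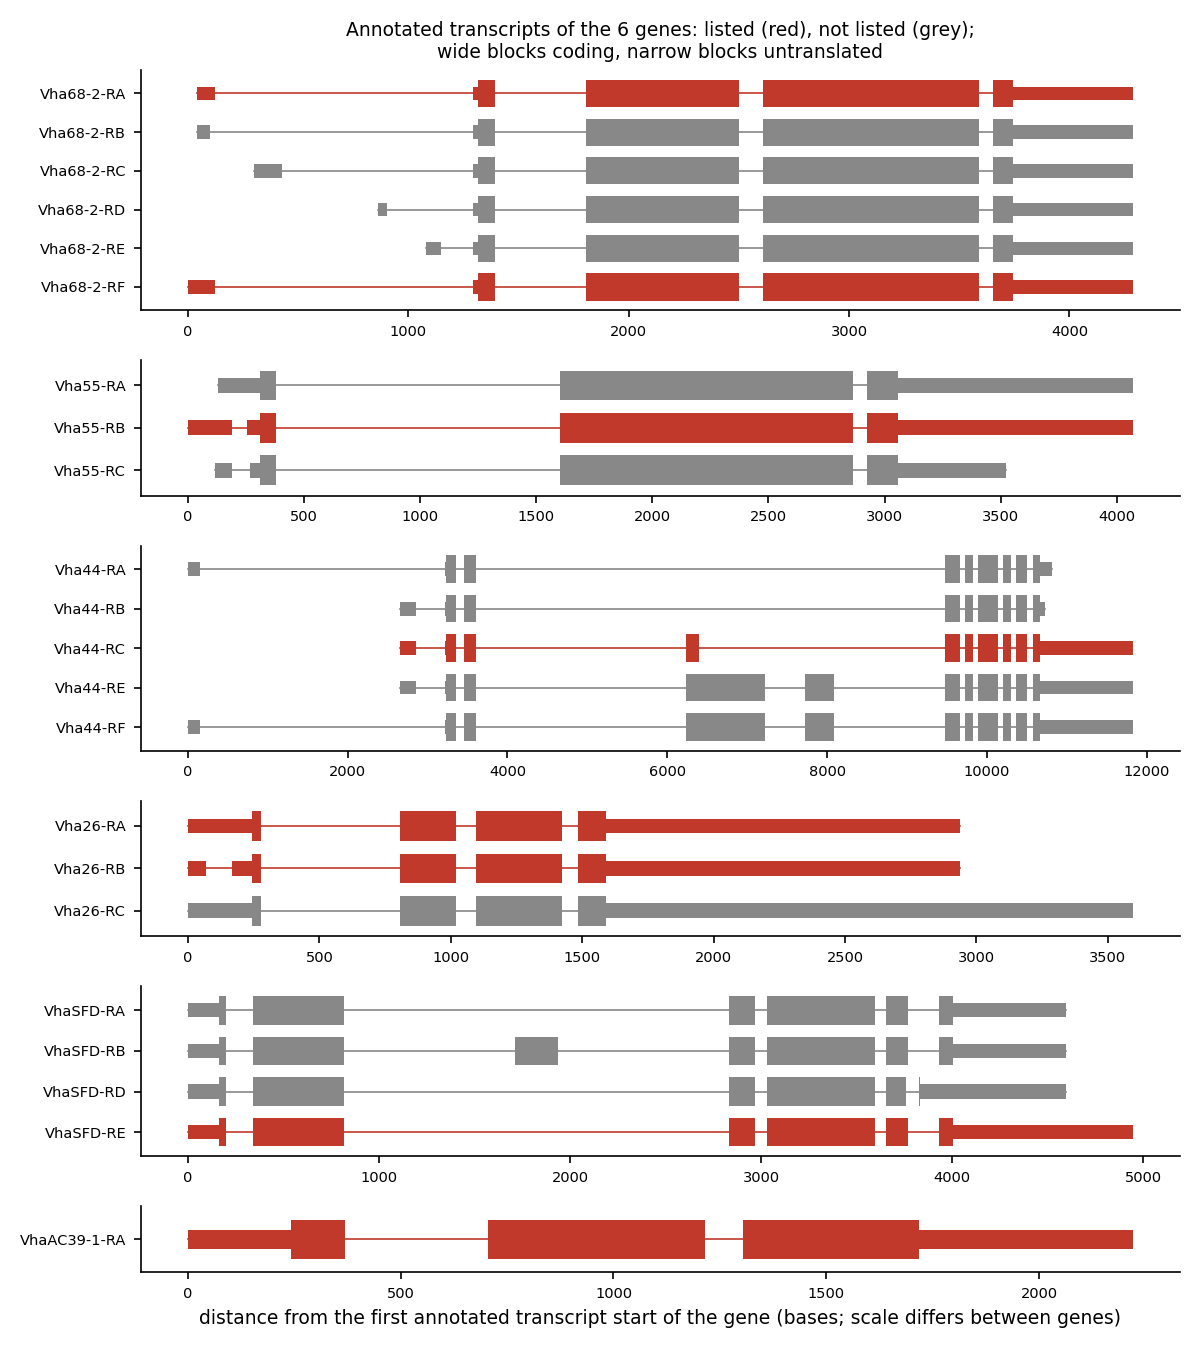
Annotated transcripts of the 6 genes, drawn from the first annotated start (bases; the scale differs between genes), with wide blocks coding and narrow blocks untranslated. Listed transcripts are red: 2 of 6 for Vha68-2, 1 of 3 for Vha55, 1 of 5 for Vha44, 2 of 3 for Vha26, 1 of 4 for VhaSFD and the single one of VhaAC39-1.

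Genes that work beside the pump were taken from lists, and their listed transcripts were also selected on the contrast. Of 15 matched genes for V-ATPase assembly and nutrient signalling at the lysosome, 1 was listed: mtd-RC measured 0.708 and 0.751 TPM in the mutant libraries and 2.07 and 1.93 TPM in the w1118 libraries. The mtd gene encodes a TLDc-domain protein, a family whose mammalian members bind the V-ATPase. Mitf, the transcription factor known in flies for driving V-ATPase genes, was not listed. Of the related F-type ATP synthase of mitochondria, 0 of 16 genes were listed. Most annotated transcripts were not listed, so nothing is read from these counts of listed genes.

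Other cation pumps, exchangers and chloride transporters had 7 listed transcripts from 6 of 16 genes. All 7 were lower and limma called 5 over the listed transcripts. Their median log2 change was -0.86, against -0.82 over all transcripts listed as lower. Of all listed transcripts 23.4% were called lower. Nha1-RB, of the sodium/hydrogen antiporter family, had 37.8 and 37.8 TPM in kdm5 mutant intestines and 103 and 83.1 TPM in w1118 intestines. It alone of the 7 was called with every annotated transcript counted (limma adjusted p = 0.0122). Atpalpha-RB, the catalytic subunit of the sodium/potassium ATPase, reached 24.3 and 35.3 TPM in mutant replicates 1 and 2, against 64.7 and 48.2 TPM in the w1118 replicates. For ClC-c-RB, a chloride transporter, the values were 1.11 and 2.67 TPM in mutant intestines and 5.13 and 5.05 TPM in w1118 intestines, and for ClC-a-RF 0.944 and 1.39 TPM against 2.86 and 2.99 TPM in w1118. These 4 were named for the largest changes among the called, and none overlapped. SERCA-RH, of the calcium pump of the endoplasmic reticulum, was not called and did overlap, with 2.47 and 4.37 TPM in kdm5 mutant intestines and 7.24 and 3.58 TPM in w1118 intestines. Of all listed transcripts 35.9% were lower without overlap.

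Transcripts of lysosomal proteins, which work in the compartment the pump acidifies, were listed on both sides. Of 10 listed transcripts, limma called 4 lower and 5 higher over the listed transcripts, beside 23.4% and 53.7% in the whole table. With every annotated transcript counted, 3 were called lower and 3 higher (8.69% and 22.0% of the table). LManIII-RB, a lysosomal alpha-mannosidase, measured 39.7 and 30.9 TPM in the mutant libraries and 3.86 and 4.67 TPM in the w1118 libraries. LManV-RB, of the same family, had 9.05 and 2.84 TPM in kdm5 mutant intestines and 33.2 and 20.5 TPM in w1118 intestines. These mannosidases thus differed in opposite directions. Npc1a, which encodes a lysosomal sterol transporter, had 1 transcript on each side: Npc1a-RA reached 0.118 and 0.000843 TPM in mutant replicates 1 and 2, against 3.78 and 2.88 TPM in the w1118 replicates. Npc1a-RE measured 3.02 and 6.61 TPM in the mutant libraries and 0.373 and 0.173 TPM in the w1118 libraries. Of the autophagy genes 2 were listed, Atg16-RC as higher and Atg1-RA as lower.

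**Figure D5:**
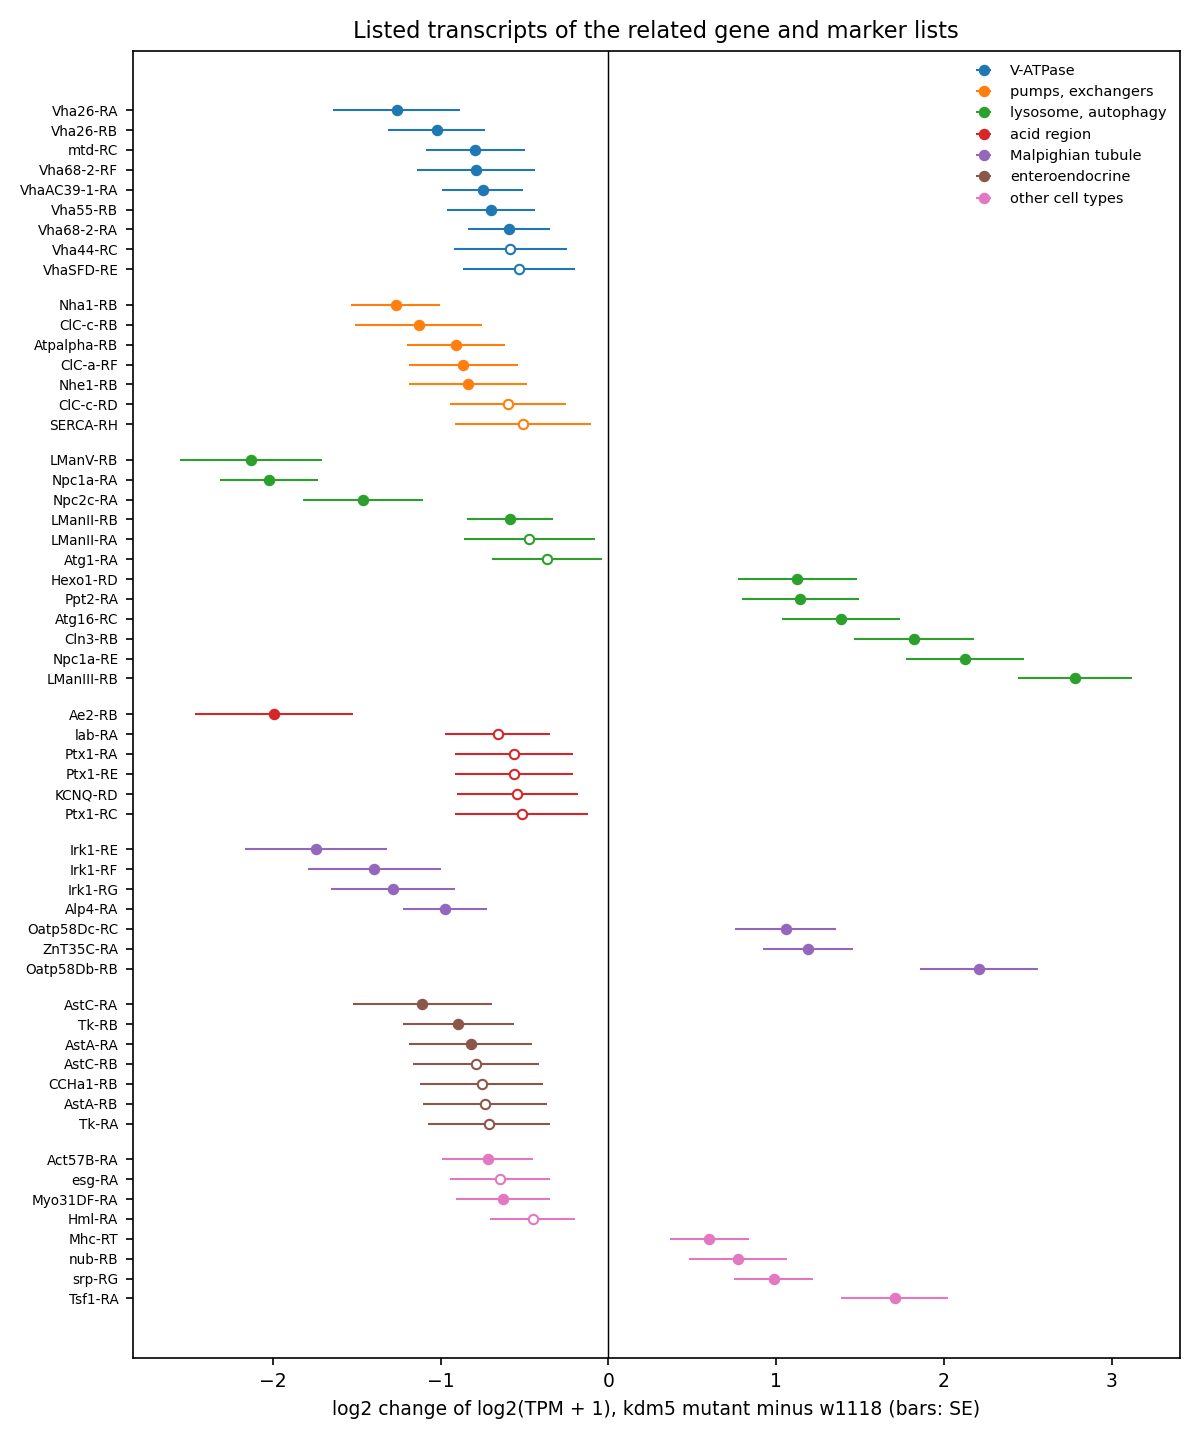
Log2 change on log2(TPM + 1), kdm5 mutant minus w1118, with SE bars, for every listed transcript of the related lists; filled points were called by limma over the listed transcripts. V-ATPase (drawn together with mtd-RC), pumps and exchangers, acid-region and enteroendocrine markers all lie left of 0, while lysosomal and Malpighian tubule transcripts lie on both sides.

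The pump is abundant in particular cells, and markers of some of those cells differed between the same libraries. In bulk tissue, fewer cells of a type and less RNA per cell cannot be told apart. Of the acid region, 6 transcripts of 4 among 6 marker genes were listed, all as lower, as were 725 of all 1761 listed transcripts. Over the listed transcripts limma called 1 of the 6 lower, beside 23.4% of the table. Ptx1-RA and Ptx1-RE have equal values in every library, so the count and the sum below hold the same values more than once. Ae2-RB, an anion exchanger of the copper cells, had 0.824 and 3.06 TPM in kdm5 mutant intestines and 16.2 and 5.79 TPM in w1118 intestines, and was called with either count of tests (limma adjusted p = 0.0357 with every annotated transcript counted). The homeodomain factor lab, which specifies copper cells, reached 0.632 and 1.03 TPM in mutant replicates 1 and 2, against 2.47 and 1.39 TPM in the w1118 replicates (limma adjusted p = 0.0594 over the listed transcripts). The listed Ptx1 transcripts, which all overlapped between the genotypes, and KCNQ-RD were not called. The summed acid-region markers measured 7.35 and 15.6 TPM in the mutant libraries and 36.1 and 18.3 TPM in the w1118 libraries. Vha100-4, a V0 subunit a also used as a marker of this region, was not listed.

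Malpighian tubule markers went both ways. Of 11 genes, 5 had 7 listed transcripts, 4 called lower (3 of Irk1 and 1 of Alp4) and 3 called higher (Oatp58Db, Oatp58Dc and ZnT35C). Over all listed transcripts 23.4% were called lower and 53.7% higher, so the count of higher tubule markers is no result about them. Irk1-RE, a potassium channel transcript, measured 1.25 and 3.02 TPM in the mutant libraries and 12.8 and 6.35 TPM in the w1118 libraries. Oatp58Db-RB, of an organic anion transporter, measured 24.1 and 22.9 TPM in the mutant libraries and 3.67 and 5.02 TPM in the w1118 libraries. Irk1-RE did not overlap between the genotypes, and 35.9% of all listed transcripts were lower in this way. The sum over the listed tubule transcripts came to 251 and 278 TPM for the mutant and 294 and 352 TPM for w1118. Enteroendocrine markers had 7 listed transcripts from 4 of 8 genes, all lower, with 3 called (transcripts of the peptide hormone genes AstC, Tk and AstA), beside the 23.4% called lower in the whole table. With every annotated transcript counted, limma called 0 of the 7. They summed to 24.0 and 32.3 TPM in mutant intestines and 58.5 and 50.7 TPM in w1118 intestines. Enterocytes are the absorptive cells of the midgut, and 2 of their 7 marker genes were listed. Of these, Myo31DF-RA had 31.0 and 40.0 TPM in kdm5 mutant intestines and 60.0 and 50.4 TPM in w1118 intestines, and nub-RB was higher. Of the visceral muscle markers, Act57B-RA reached 96.5 and 135 TPM in mutant replicates 1 and 2, against 233 and 152 TPM in the w1118 replicates.

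Of the other lists, the progenitor marker esg-RA and the haemocyte marker Hml-RA were listed as lower and not called. The fat body marker Tsf1-RA, the muscle transcript Mhc-RT and the haemocyte transcript srp-RG were called higher; Mhc-RT and srp-RG are listed at or near 0 in both w1118 libraries, so no fold is given. No trachea or germline marker was listed. A marker that is not listed has no level here and is not at 0. After the rescaling described above, no transcript of these lists changed direction, but calls did change. Of those called higher, 6 were lost: Oatp58Dc-RC (limma adjusted p = 0.410), ZnT35C-RA (0.281), Hexo1-RD (0.285), Ppt2-RA (0.172), nub-RB (0.146) and Mhc-RT (0.0666). Higher calls then numbered 1 for tubule markers and 3 for lysosomal proteins, beside 307 of all 1761 listed transcripts. Lower calls numbered 6 for the acid region, with the equal Ptx1 pair, and 7 for enteroendocrine markers, beside 717 of the 1761. The rescaling itself moved the whole table toward lower calls, so nothing is read from these counts. The part of any of these cells in the V-ATPase values was not tested.

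With all V-ATPase transcripts left out, other listed transcripts were ranked by likeness to the summed V-ATPase level. Among 879 other listed transcripts averaging 10 TPM or more, likeness was the Euclidean distance between centred log2(TPM + 1) profiles over the 4 libraries. The 5 nearest to the sum were CG32641-RA (distance 0.0826 on the log2 scale), ergic53-RB (0.0860), CG31743-RB (0.0880), and Nplp2-RA and Nplp2-RC, which have equal values (0.0906). The nearest to Vha68-2-RA alone were CG9673-RB (0.0597), Kaz-m1-RA (0.0780), both Nplp2 transcripts (0.0932) and CG32641-RA (0.0984). The ergic53 gene encodes a cargo receptor of the early secretory pathway. All of these profiles share the same 4 libraries, and the likeness is a description of them.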

How the data were processed

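The single deposited table lists transcript identifiers, p-values and TPM for 4 libraries, per the file headers. Cufflinks and DESeq appear in the submitters' processing notes without versions or roles. Aligner, genome build and annotation: not given in the sources used here. No source tells if the authors adjusted the deposited p-values. Identifiers were matched to Ensembl release 115 (BDGP6.54): 1741 of 1761 matched, to 1526 genes. That annotation gave all names, positions and transcript structures and may differ from the one the authors used.

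limma 3.58.1 in R 4.3.3, with its prior variance allowed to follow the mean (limma-trend), was fitted to log2(TPM + 1) of all 1761 transcripts, mutant against w1118. This scale understates changes of low transcripts. p-values were Benjamini-Hochberg adjusted over the listed transcripts, and alternatively over 35694 annotated transcripts outside transposable elements. The limma step was run on simulated data as a check of the code, with independent noise and changes larger than those of the members. That run does not bear on the calls made here. A fold or percentage without log2 is a ratio of mean TPM. Errors are SDs over 2 libraries or fitted SEs, since depth is unknown.

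Members and gene lists were chosen with earlier results of these data known. Of 217 list entries 6 matched no symbol. Named from each list were all listed members, or, beyond 4, the 4 called with the largest change; lab, Ptx1, KCNQ and the other marker genes named beyond 4 complete a count and were chosen after their values were seen. Promoter and protein sequences were not analysed here. The 5 most similar transcripts had a mean of at least 10 TPM.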

Additional observations from a re-analysis of the deposited data

How the results depend on the processing

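Of 88 recomputed log2 changes of the 8 V-ATPase transcripts, 32 equal the original by construction (filter, prior variance and blocks). The other 56 were negative, and 16 moved by more than their SE. In the original fit the members' median log2 change was -0.72. The summed log2 ratio was -0.73; leaving out 1 library gave -0.47 to -0.95. Leaving out 1 library gave 0 to 4 called members, against 6 of 8 (at unadjusted p < 0.05 limma gave 0 without mutant replicate 1, 4 without mutant replicate 2, 0 without w1118 replicate 1 and 5 without w1118 replicate 2), and 580 to 1239 called transcripts in the table, against 1358. Adjusting over all annotated transcripts gave 0 members and 540 transcripts. Median-of-ratios scaling over the selected list shifted the median log2 change of all listed transcripts to 0.10, against 0.86. It gave -1.58 as the members' median, -1.59 for the sum and 8 called members. Such scaling takes most transcripts as unchanged, which cannot be assumed of a list selected as different. The share of higher calls in the table was then 30.0% (307 higher, 717 lower), against 69.7%, so the size of the V-ATPase difference depends on how libraries are scaled. The cause was not tested. With the replicate number as a block, limma called 5 members and 933 transcripts. Same-numbered libraries deviated from their group means with a correlation of -0.19 over transcripts. A block with the numbers crossed, added after the data were examined, gave 7 members and 1666 transcripts. Pseudocounts of 0.1 and 5 and a minimum mean of 1 TPM gave 5 or 6 called members, and 1 prior variance for all transcripts gave 4. Summing listed transcripts per gene gave 4 of 6 genes called. Depth is unknown, which limits what the low transcripts can show.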
